A study of Mus musculus with 4 samples.

Results

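Rab5a, Atg3 and Tm9sf1 were chosen by name as genes of endosomes and autophagy, with earlier results of these data known. They are 3 of the 45 genes whose probe could be given a symbol on an m6A microarray of mouse brown preadipocytes. All 3 had a usable probe, as did 41 of the 45. Each was read by 1 probe, A_51_P117604 for Rab5a, A_51_P143855 for Atg3 and A_51_P455410 for Tm9sf1, and each probe was spotted 10 times on both arrays. The control cells came from EP3F/F mice, in which the EP3 allele is floxed and no Cre is listed. The EP3 conditional knockout (cKO) cells came from Myf5CreEP3F/F mice, which carry the same floxed allele plus Cre driven by Myf5, a gene of muscle and brown fat precursors. Cre was therefore present in the cKO pool only, and Cre and the loss of EP3 cannot be told apart. EP3 is a receptor for prostaglandin E2, encoded by Ptger3. Cells were sorted as Lin-CD29+CD34+Sca1+ from mice of 8 weeks, given as male in the labels of the antibody-bound samples, and no treatment is listed. Each genotype was 1 pool from approximately 30 mice, split into RNA bound by an antibody against N6-methyladenosine (IP, labelled with Cy5) and RNA left in the supernatant (Sup, labelled with Cy3). The 4 samples were read on 2 arrays, 1 per genotype.

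Early endosomes receive cargo taken up at the cell surface and pass it on for recycling or for breakdown in lysosomes. Autophagy carries cytoplasmic material to the same lysosomes inside a membrane, and in brown fat it is known for the removal of mitochondria. Rab5a encodes a small GTPase that directs the tethering and fusion of early endosomes. Atg3 encodes the enzyme that joins proteins of the LC3 family to phosphatidylethanolamine on the growing autophagosome membrane. Tm9sf1 encodes a protein with multiple membrane-spanning segments, of the nonaspanin family, which is reported in human cells on autophagic and lysosomal membranes. N6-methyladenosine (m6A) is a methyl mark on adenosine in RNA that reader proteins use in splicing, translation and decay.

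Promoter sequences of Rab5a and Atg3 are shown because both transcripts had lower signals in cKO in both fractions after median scaling, whereas the Sup signal of Tm9sf1 relative to the array median was higher. This pattern depends on the scaling, since the IP difference of Rab5a was 0.22 (log2) when channels were scaled to the median of the ERCC spike-in spots. Lower signals in both fractions were not particular to Rab5a and Atg3, as other named genes, among them Acaa2, E2f1 and Uhrf1bp1l, had them too. The windows are the 250 bases before the annotated start, from RefSeq on GRCm38.p6, at chr17:53478984-53479233 on the plus strand for Rab5a and at chr16:45158579-45158828 on the plus strand for Atg3. Capitals mark CACGTG, the E-box core, which is its own reverse complement, so that a search of either strand finds the same matches. E-boxes are bound by basic helix-loop-helix factors, among them TFEB, a regulator of lysosome and autophagy genes. The motif was chosen after the sequences had been seen.
Rab5a: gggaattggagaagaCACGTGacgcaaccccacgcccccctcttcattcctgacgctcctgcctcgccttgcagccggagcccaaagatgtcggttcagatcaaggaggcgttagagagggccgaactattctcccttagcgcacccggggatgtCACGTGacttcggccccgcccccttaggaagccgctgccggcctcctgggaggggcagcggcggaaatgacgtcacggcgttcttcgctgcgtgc
Atg3: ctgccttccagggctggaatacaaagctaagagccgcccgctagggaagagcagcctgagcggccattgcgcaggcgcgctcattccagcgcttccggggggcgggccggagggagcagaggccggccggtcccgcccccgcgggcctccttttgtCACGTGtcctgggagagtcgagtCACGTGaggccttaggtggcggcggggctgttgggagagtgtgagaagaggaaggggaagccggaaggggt
Each window held 2 matches, 235 and 95 bases before the start in Rab5a and 94 and 71 bases before it in Atg3. RefSeq gives Tm9sf1 2 starts, at the ends of chr14:55643372-55643621 and chr14:55643807-55644056 on the minus strand, and these windows held 0 matches. Among 32851 mouse promoter windows of this length, 1978 (6.02%) held CACGTG and 141 (0.429%) held 2 or more. Because the motif was chosen after the sequences had been seen, these shares do not measure how unusual the matches are. The windows of Acaa2, E2f1 and Uhrf1bp1l were not examined singly, and a link between motif and signal was not tested. A match describes the letters only, and no binding was measured here.

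The arrays had 43838 usable probes of 60691 (72.2%), that is probes for which a share of at least 0.5 of the spots carried no outlier flag and stood well above background in all 4 signals. Median processed signals over these probes ran from 411 to 474 in the 4 samples, and no spot was saturated, a count of 0. The pooled SD of repeated spots over the 41 named probes (353 spots) was 0.16 (log2) for the difference in m6A ratio and 0.09 for the difference in abundance. Repeated spots share 1 RNA pool and 1 array, so every SD below is technical, no test between genotypes was possible, and precision is limited by having 2 arrays. Markers could not check the sorted cell type, since 0 of 7 brown preadipocyte markers had a named probe, nor did Ptger3. The marker lists of mature brown adipocytes, skeletal muscle, immune, endothelial and erythroid cells also had 0 named probes. Of 4 Schwann cell and neuron markers, Mbp was named and usable, and its abundance in cKO differed from control by 0.10 ± 0.15 (SD, n = 8 spots). Mbp differed by -0.67 ± 0.22 (SD, n = 8 spots) in m6A ratio. In IP it differed by -0.21 ± 0.20 (SD, n = 8 spots), and in Sup by 0.46 ± 0.19 (SD, n = 8 spots). Tm9sf1 had these signs too, but the opposite sign in abundance (-0.11). Mbp was dim, with geometric mean processed signals of 126 to 193 in the 4 samples, against 8811 to 13996 for Tm9sf1. The part of Mbp in the values below was not tested.

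Rab5a was read with 9 usable spots. Its processed signal, an intensity on a linear scale after background subtraction and dye normalisation, had a geometric mean of 14301 in control IP with spots from 13578 to 14891. In cKO IP it was 9768, with spots from 9514 to 9914. In Sup it was 3440 in control, from 3268 to 3655, and 2662 in cKO, from 2587 to 2820. On this scale both cKO samples were lower than their control counterparts, and the spots of the genotypes did not overlap in either fraction. The median over usable probes was lower in cKO too, 413 against 474 in IP and 411 against 468 in Sup. The share of other probes whose spots separated was not counted, here or for Atg3 and Tm9sf1 below. Before dye normalisation the IP signal ran from 4743 to 5200 in control and 2494 to 2608 in cKO, but the Sup signal ran from 685 to 757 in control and 751 to 812 in cKO, higher in cKO with overlapping spots. The scanner's linear dye factor for the Sup channel was 4.71 on the control array and 3.49 on the cKO array. In processed signal, IP exceeded Sup in both genotypes.

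Atg3 was read with 6 usable spots and was dim. Its processed signal was 158 in control IP, with spots from 143 to 180, and 83.4 in cKO IP, with spots from 68.7 to 96.6. In Sup it was 140 in control, from 118 to 154, and 84.0 in cKO, from 75.6 to 99.9. Control was above cKO in both fractions without overlap of spots, while IP and Sup of the same genotype lay close together. Before dye normalisation the background-subtracted signal of Atg3 was low, 49.1 to 62.3 in the IP sample and 26.3 to 33.4 in the Sup sample of control, against 17.4 to 24.98 and 22.3 to 29.4 in those of cKO. All 10 spots were nevertheless well above background in all 4 samples, as were those of Rab5a and Tm9sf1.

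Tm9sf1 was read with 9 usable spots. Its processed signal was 13996 in control IP, with spots from 12887 to 14860, and 9747 in cKO IP, with spots from 9287 to 10113. In Sup it was 8883 in control, from 8498 to 9571, and 8811 in cKO, from 8518 to 9326. The IP spots separated the genotypes and the Sup spots overlapped. Before dye normalisation the Sup signal was higher in cKO without overlap, 2481 to 2668 against 1715 to 1964 in control, and the IP signal lower, 2302 to 2578 against 4473 to 5152.

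**Figure D1:**
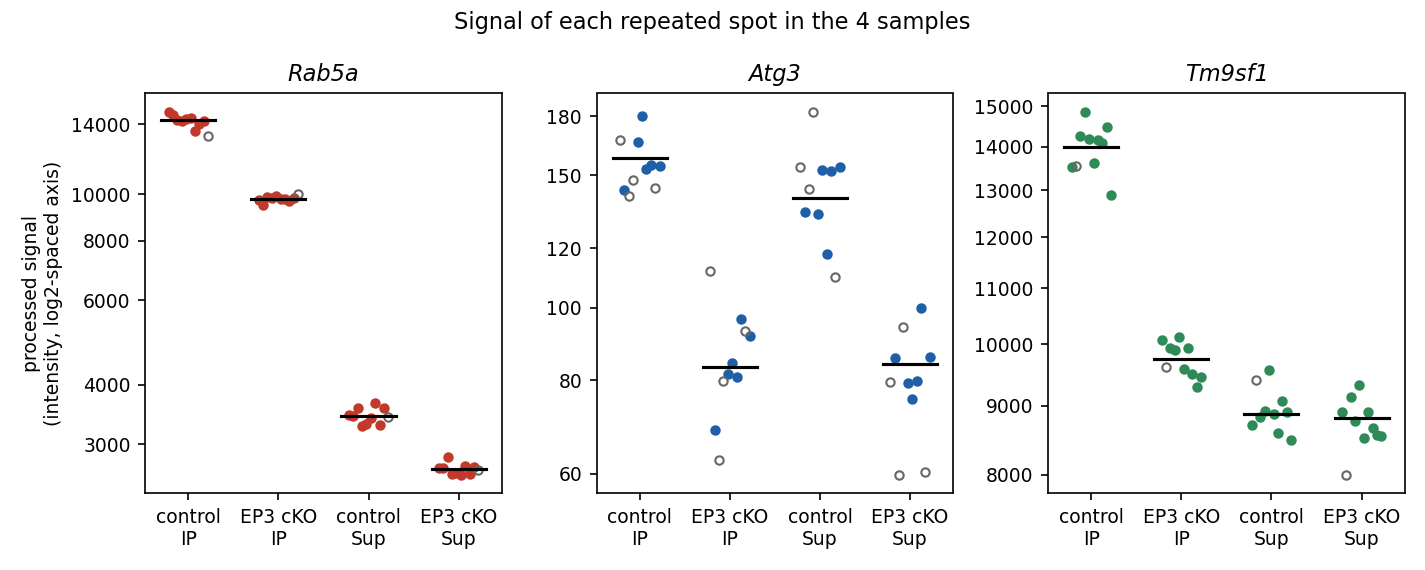
Processed signal (intensity, log2-spaced axis whose range differs between panels) of each repeated spot of the Rab5a, Atg3 and Tm9sf1 probes in the 4 samples, with filled points for spots used, open points for spots left out by a flag on either array, and bars for the geometric mean of the spots used. The cKO IP spots lie below the control IP spots for all 3 genes, whereas the Sup spots of Tm9sf1 overlap around means of 8883 and 8811.

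The first comparison asked how strongly each transcript was held by the m6A antibody within a genotype. Signals were scaled so that the usable probes of each channel had a median of 1. The m6A ratio, log2(IP/Sup), of Rab5a was then 2.04 ± 0.08 (SD, n = 9 spots) in control, with spots from 1.88 to 2.10. In cKO it was 1.87 ± 0.04 (SD, n = 9 spots), with spots from 1.80 to 1.91. The IP signal was thus 4.11-fold the Sup signal in control and 3.65-fold in cKO. Rab5a ranked 4 of 41 named genes in control and 3 of 41 in cKO, and its ratio lay above that of 95.6% and 95.2% of usable probes. Since IP always carried Cy5, each probe's own dye bias is part of its ratio.

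Tm9sf1 had a ratio of 0.64 ± 0.06 (SD, n = 9 spots) in control, with spots from 0.55 to 0.72, and 0.14 ± 0.02 (SD, n = 9 spots) in cKO, with spots from 0.11 to 0.17. The spots of the genotypes did not overlap. It lay above 74.8% of usable probes in control and 59.5% in cKO, and moved from rank 16 to rank 22 of the 41 named genes. Atg3 had a ratio near 0 in both genotypes, 0.16 ± 0.16 (SD, n = 6 spots) in control with spots from -0.01 to 0.36, and -0.02 ± 0.17 (SD, n = 6 spots) in cKO with spots from -0.33 to 0.15. Its rank was 25 of 41 in both. The spots of the genotypes overlapped for Atg3 and for Rab5a. The zero of the ratio is set by the scaling, and over 12 alternatives the control ratio of Atg3 ran from -0.43 to 1.00, that of Tm9sf1 from 0.046 to 1.48 and that of Rab5a from 1.45 to 2.88. IP exceeded Sup at least 2-fold for 1 of the 3 genes, Rab5a, in each genotype, where 17.6% of usable probes did so in control and 16.3% in cKO. These counts follow the scaling. The probes numbered 7723 in control and 7136 in cKO as reported, 17561 and 13952 with SPINKEIN spike-in spots, 16009 and 14998 with the ERCC mean, 3741 and 7537 with the ERCC median, and 4873 and 2094 in the authors' deposited value table. Tm9sf1 also passed 2-fold in control with SPINKEIN (1.48) and with the ERCC mean (1.38).

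**Figure D2:**
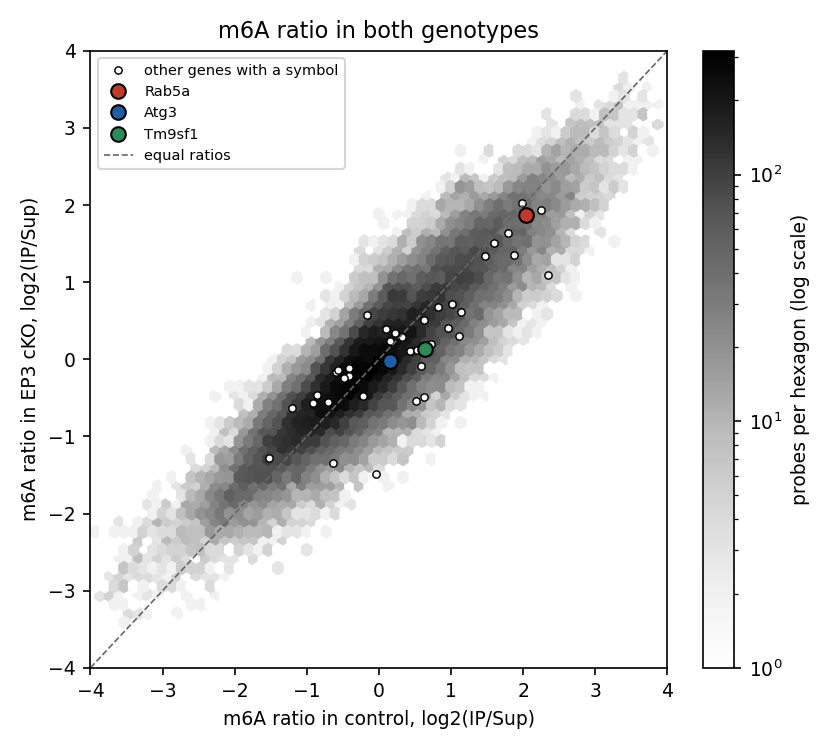
The m6A ratio, log2(IP/Sup) after median scaling, in cKO (y axis) against control (x axis). The density of usable probes is on a log colour scale, with the other named genes as small points and Rab5a, Atg3 and Tm9sf1 as large points. The spread between spots is not drawn. The axes leave out 74 of 43838 probes. Rab5a lies at 2.04 in control and 1.87 in cKO, Tm9sf1 at 0.64 and 0.14 below the line of equal ratios, and Atg3 at 0.16 and -0.02 near the origin.

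The second comparison asked how the m6A ratio differed between cKO and control preadipocytes. Tm9sf1 had the largest difference of the 3 genes in size, -0.50 ± 0.06 (SD, n = 9 spots), and each of its 9 spots was below 0, from -0.57 to -0.44. That is a 1.41-fold lower ratio in cKO, and 14.1% of usable probes lay further down. The Tm9sf1 spot left out by an outlier flag had a smaller difference, -0.25. Rab5a had a difference of -0.17 ± 0.06 (SD, n = 9 spots), with spots from -0.24 to -0.03, and 32.0% of usable probes lay further down. Atg3 had a difference of -0.18 ± 0.20 (SD, n = 6 spots), with spots from -0.40 to 0.10 and 5 of 6 below 0, so its difference was smaller than the spread of its spots. The Atg3 spots left out by an outlier flag were all above 0, at 0.38, 0.11, 0.075 and 0.24. Without a spot filter the difference of Atg3 was -0.04, so its sign among the spots depends on the filter. Among the spots used, those of Tm9sf1 lay below those of Rab5a and Atg3 without overlap, and those of Rab5a and Atg3 overlapped.

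None of the 3 genes reached a 2-fold difference in m6A ratio in either direction, a count of 0, where 5.28% of usable probes did. Differences at least as far from 0 as that of Tm9sf1 were found for 29.5% of usable probes, and for 70.9% and 69.8% at the size of Rab5a and Atg3. The median of the 41 named genes was -0.15, with 26 below 0 and 15 above, against a median of 0.04 and an SD of 0.50 over all usable probes. From the lowest, Tm9sf1 ranked 12, Atg3 19 and Rab5a 20 of the 41.

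The third comparison asked how the amount of each transcript differed, as abundance, log2(IP + Sup) of the scaled signals. Atg3 was lower in cKO by the largest amount, with a difference of -0.64 ± 0.14 (SD, n = 6 spots), or 1.56-fold, and all 6 spots lay between -0.86 and -0.45. It ranked 5 from the lowest of the 41 named genes, and 5.69% of usable probes lay lower. Rab5a had a difference in abundance of -0.32 ± 0.03 (SD, n = 9 spots), or 1.25-fold lower, with spots from -0.37 to -0.27, a rank of 11 and 15.8% of usable probes lower. For Tm9sf1 the difference was -0.11 ± 0.05 (SD, n = 9 spots), or 1.08-fold lower, with spots from -0.19 to -0.04, and the abundance values of its spots overlapped between genotypes. None of the 3 reached 2-fold, a count of 0, where 3.60% of usable probes did. Over all usable probes the median abundance difference was 0.05 with an SD of 0.44, and 23 of the 41 named genes were below 0. In a pool, fewer cells that make a transcript and less of it per cell cannot be told apart.

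**Figure D3:**
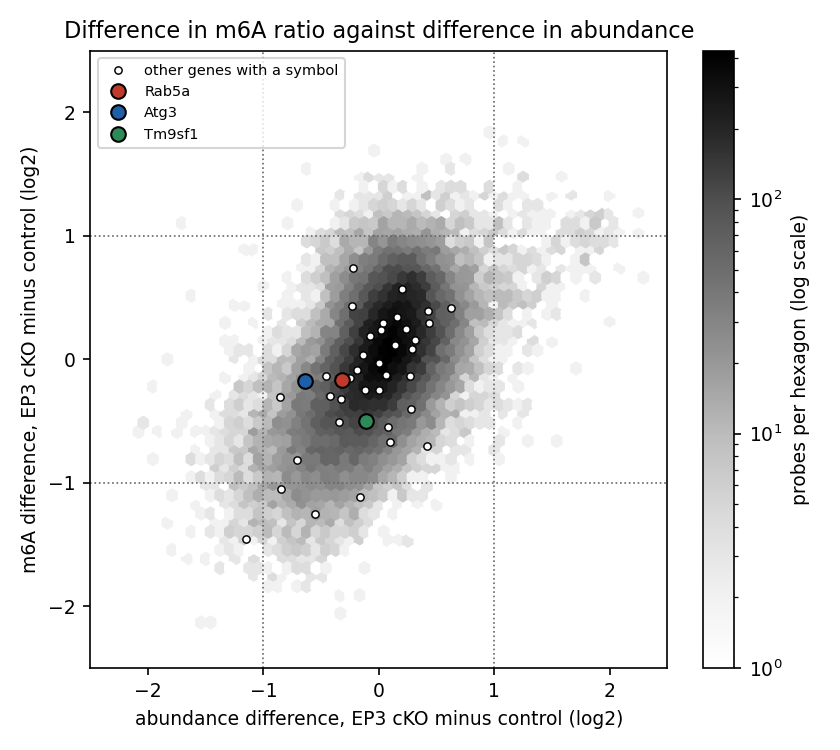
Difference in m6A ratio (y axis) against difference in abundance (x axis), both as cKO minus control on the log2 scale. Both measures are made from the same IP and Sup signals, so the axes are not independent. The density of usable probes is on a log colour scale, with the other named genes as small points and Rab5a, Atg3 and Tm9sf1 as large points. The spread between spots is not drawn. The axes leave out 65 of 43838 probes. Atg3 is the furthest left of the 3, in abundance (-0.64), and Tm9sf1 the lowest, in m6A ratio (-0.50). Rab5a lies at -0.32 in abundance and -0.17 in m6A ratio.

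The fractions taken singly separated the 3 genes further. In IP, the scaled cKO signal differed from control by -0.73 ± 0.17 (SD, n = 6 spots) for Atg3, -0.35 ± 0.04 (SD, n = 9 spots) for Rab5a and -0.32 ± 0.07 (SD, n = 9 spots) for Tm9sf1. In Sup, Atg3 differed by -0.55 ± 0.17 (SD, n = 6 spots) and Rab5a by -0.18 ± 0.04 (SD, n = 9 spots), whereas Tm9sf1 differed by 0.18 ± 0.05 (SD, n = 9 spots), with all 9 spots above 0, from 0.12 to 0.24. The Tm9sf1 spot left out by an outlier flag had -0.05 in Sup. Relative to the array median, Atg3 and Rab5a were lower in both fractions, and Tm9sf1 was lower in IP and higher in Sup. With scaling to the ERCC median the IP difference was 0.22 for Rab5a and 0.25 for Tm9sf1, above 0, and -0.15 for Atg3. Over 12 alternatives the IP difference ran from -0.85 to 0.22 for Rab5a, -0.83 to 0.25 for Tm9sf1 and -1.18 to -0.10 for Atg3. The Sup difference of Atg3 was among the lowest of the array, with 3.71% of usable probes below it, but it was -0.24 with normexp and -0.17 with loess and Aquantile. In the same settings the IP difference of Atg3 was -0.10 and -0.28. The Sup difference of Tm9sf1 had 70.9% of usable probes below it, and it was -0.01 without scaling, -0.03 with loess and Aquantile and -0.04 with scaling to the mean of the ERCC spike-in spots.

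The scaling of the channels moved all 3 genes together with the array. Scaling to the median of the ERCC spike-in spots (5 probes) moved the median m6A difference of all usable probes up by 0.64 and gave 0.47 for Rab5a, 0.46 for Atg3 and 0.14 for Tm9sf1. The authors' deposited value table, moved that median by -0.48 and gave -0.63, -0.49 and -0.95 in the same order. The median abundance difference moved by 0.21 with the ERCC median, -0.23 with the ERCC mean, -0.22 in the authors' table and -0.19 without scaling. Of the probes past 2-fold in m6A difference, 37.7% were higher in cKO as reported, 98.8% with the ERCC median and 1.90% in the authors' table. Relative to each setting's own median, the m6A difference was -0.87 to -0.46 for Tm9sf1 and -0.49 to -0.13 for Rab5a over 13 settings. For Atg3 it was -0.22 to 0.06, the highest with normexp, which gave 0.14 before the median was taken off. The abundance difference relative to the median was -0.73 to -0.22 for Atg3, -0.50 to -0.14 for Rab5a and -0.29 to -0.07 for Tm9sf1. The order of the genes in abundance was another in the normexp settings, with -0.42 for Rab5a against -0.17 for Atg3, and -0.41 against -0.23 when loess and Aquantile followed. These settings start from pixel medians, add an offset and replace the scanner's dye normalisation together, so the step behind the change was not tested.

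**Figure D4:**
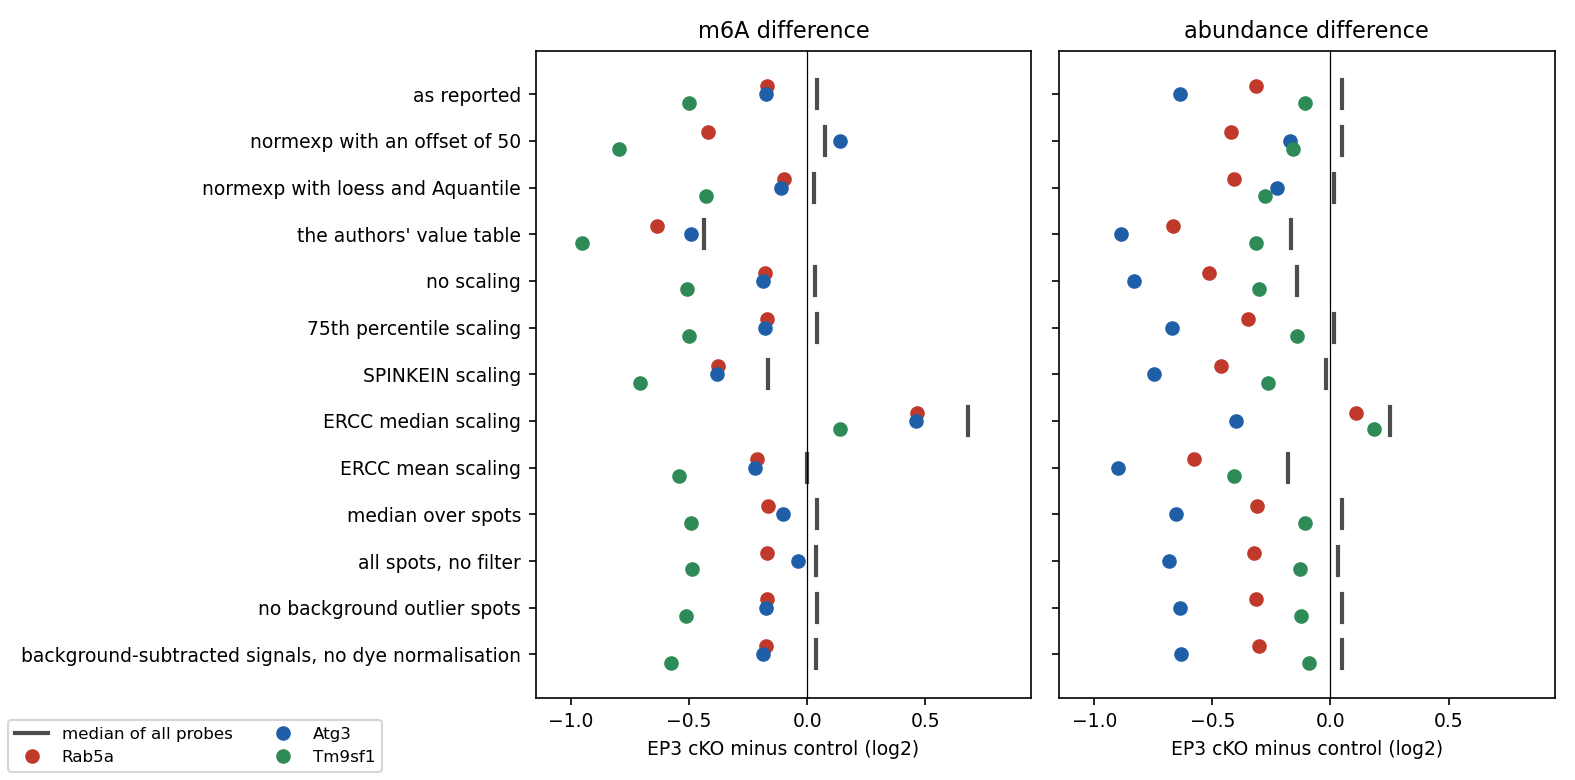
Differences in m6A ratio (left) and abundance (right) between cKO and control on the log2 scale for Rab5a, Atg3 and Tm9sf1 under settings of background correction, scaling and spot filter (y axis), with a vertical tick at the median of all usable probes in that setting. The 3 genes lie left of the tick in every setting shown except Atg3 in m6A ratio with normexp, at 0.14, and all 3 are above 0 in m6A ratio only with the ERCC median.

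By pattern over the 4 samples, the named genes nearest to each of the 3 were found from log2 signals centred on each probe's own mean. Nearest to Rab5a were Uhrf1bp1l at a Euclidean distance of 0.16 and Taf1a, a subunit gene of the RNA polymerase I initiation factor, at 0.22, where the median distance to a named gene was 1.75. Nearest to Tm9sf1 were the major histocompatibility gene H2-M2 at 0.07 and the myelin protein gene Mbp at 0.26, where the median distance was 0.83. Atg3 had no neighbour as close. Acaa2, a thiolase gene of fatty acid oxidation, stood at 0.39 and the cell cycle transcription factor gene E2f1 at 0.50, where the median distance was 1.01. The m6A difference was -0.18 for Atg3, -0.32 for Acaa2 and -1.05 for E2f1. In IP the differences were -0.73, -0.48 and -1.37 in the same order, so E2f1 was like Atg3 in sign but not in size. These distances rest on 4 samples from 2 arrays and describe likeness only.

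Of 69 other endosome genes, 1 had a named probe, Uhrf1bp1l, whose product is a lipid transfer protein found on endocytic vesicles in human cells. Its processed IP signal was 51257 in control and 40761 in cKO, and its Sup signal 12732 and 9988, the cKO sample being lower in each fraction. Its m6A ratio was 1.99 ± 0.11 (SD, n = 10 spots) in control and 2.02 ± 0.05 (SD, n = 10 spots) in cKO, a difference of 0.03 ± 0.09 (SD, n = 10 spots) that was smaller than the spot spread. Its abundance difference was -0.14 ± 0.05 (SD, n = 10 spots). Of 49 other autophagy genes and 3 other nonaspanin genes, 0 had a named probe, so the rest of these pathways is not analysed here. RefSeq lists 1 transcript for Rab5a, 2 for Atg3 and 11 for Tm9sf1, 9 of these predicted. The files pair each probe with 1 curated RefSeq transcript of its gene. No probe sequence was used here, so it was not tested whether a probe also reads the gene's other transcripts or, for Rab5a, the related Rab5b or Rab5c.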

How the data were processed

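IP and Sup RNA of 1 control and 1 cKO pool were analysed. Arrays were quantified in Agilent Feature Extraction 11.0.1.1, per the file headers and the submitters' processing notes. In the deposited scanner files the processed signal is an intensity, background-subtracted and dye-normalised within the array by linear and Lowess steps, with background-subtracted and pixel-median intensities and flags of 0 or 1 beside it. The authors' deposited value table is on a log2 scale, each column minus 1 constant of its own (11.92 and 12.23 for IP, 11.51 and 11.36 for Sup, control first) whose origin neither labels nor files state. Its column medians were -3.36 and -3.85 for IP and -2.97 and -3.00 for Sup. Its columns without a mapped sample numbered 0.

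Spots with a feature outlier flag or not well above background in any of the 4 signals were left out, and a probe needed at least 0.5 of its spots. Signals were scaled to a median of 1 over the usable probes of a channel, and spots were averaged on the log2 scale. The size rule was 2-fold, an absolute log2 value of at least 1, with no test. Gene names came from a RefSeq table of GRCm38.p6. Members, lists and the motif were chosen with earlier results of these data known. Named were the 3 genes, the 2 nearest named genes of each, and any listed endosome, autophagy or nonaspanin gene with a named probe. The calculation was tested on simulated data. Normexp (offset 50) and loess with Aquantile were run on pixel medians in limma 3.58.1 under R 4.3.3, the rest in Python 3.11.15, numpy 2.4.6, pandas 2.3.3 and matplotlib 3.10.9. Alternatives covered background correction, scaling, spike-in spots, filters, the measure and the size rule.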

Additional observations from a re-analysis of the deposited data

Results flagged for a closer look

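The Tm9sf1 signals of the cKO and control pools differed in opposite directions in the RNA fractions after median scaling. Scaled cKO minus control was -0.32 in IP and 0.18 in Sup on the log2 scale, with all 9 spots used below 0 in IP and all 9 above 0 in Sup. The spot left out by an outlier flag had -0.29 in IP and -0.05 in Sup. Without a spot filter the Sup difference was 0.15. With 1 array per genotype the difference between the fractions was not tested. The opposite signs depend on the scaling. The Sup value was between -0.04 and -0.01 without scaling, with loess and Aquantile and with scaling to the ERCC mean. With the ERCC median both fractions were above 0, at 0.25 in IP and 0.11 in Sup.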

How the results depend on the processing

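With 1 array per genotype the results carry no replicate check, and leaving out a replicate was not possible. IP and Sup of a genotype came from 1 pool and were read on 1 array, and spots were paired in the m6A difference. With 1 sample per group, no paired test between samples was possible. The size rule, the named probes (45 genes) and the dim Atg3 signal limit what can be said. Values below are log2 in the order Rab5a, Atg3 and Tm9sf1.

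The authors' table gave control ratios of 1.64, -0.29 and 0.23, cKO ratios of 1.00, -0.79 and -0.72, m6A differences of -0.63, -0.49 and -0.95 and abundance differences of -0.67, -0.89 and -0.32. Scaling to 57 SPINKEIN probes gave control ratios of 2.88, 1.00 and 1.48, cKO ratios of 2.499, 0.61 and 0.77, m6A differences of -0.38, -0.38 and -0.71, and abundance differences of -0.46 for Rab5a and -0.26 for Tm9sf1. It moved the median m6A difference of all probes by -0.21 and left 11.1% of its 2-fold probes higher in cKO. The ERCC median gave control ratios of 1.45, -0.43 and 0.046, a cKO ratio of 1.91 for Rab5a and 0.18 for Tm9sf1, m6A differences of 0.47, 0.46 and 0.14, and abundance differences of 0.11, -0.40 and 0.18. The ERCC mean gave control ratios of 2.78, 0.90 and 1.38, cKO ratios of 2.57, 0.68 and 0.84 and abundance differences of -0.58, -0.90 and -0.41.

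Normexp gave a cKO ratio of 1.65 and differences of -0.42 (m6A) and -0.42 (abundance) for Rab5a. It gave a control ratio of -0.18 and differences of 0.14 and -0.17 for Atg3, and ratios of 0.75 and -0.049 and an m6A difference of -0.80 for Tm9sf1. With loess and Aquantile the cKO ratio was 1.92 for Rab5a and 0.23 for Tm9sf1, the m6A difference -0.10 for Rab5a and -0.43 for Tm9sf1, and the abundance differences -0.41, -0.23 and -0.28. Background-subtracted signals with no dye normalisation, added after seeing the data, gave control ratios of 1.94, 0.0018 and 0.55, cKO ratios of 1.77, -0.18 and -0.030 and an m6A difference of -0.58 for Tm9sf1. Leaving out spots with background outlier flags was also added after seeing the data. Without scaling, the abundance differences were -0.51, -0.83 and -0.30. Sup alone gave -0.18 for Rab5a and 0.18 for Tm9sf1, the mean of log2 IP and log2 Sup gave -0.27 for Rab5a, and the median over spots gave a cKO ratio of 0.17 for Tm9sf1. Other settings moved the values of these genes by less than the spot SD. The causes were not tested.

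Probes past 2-fold in m6A difference numbered 2315 as reported, 5947 in the authors' table, 10607 with the ERCC median, 1204 with normexp, 997 with loess and Aquantile, 6530 without a spot filter and 9940 at 1.5-fold. For abundance they numbered 1577, against 2635 with the ERCC mean, 794 with normexp, 771 with loess and Aquantile, 712 for Sup alone, 2965 without a filter and 5431 at 1.5-fold. The share higher in cKO among the latter was 48.1% as reported, 26.0% without scaling, 18.6% in the authors' table, 32.7% with SPINKEIN, 85.1% with the ERCC median and 19.7% with the ERCC mean. For the m6A difference it was 13.7% with normexp, 49.6% with loess and Aquantile and 30.2% with the ERCC mean. For the ratio, with IP either higher or lower than Sup, they numbered 15199 in control and 13396 in cKO as reported. Normexp gave 9170 in control and 7925 in cKO, and loess and Aquantile 9101 and 7820. At 1.5-fold they numbered 24489 and 23079, and the authors' table gave 22846 in cKO.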
